A study of Homo sapiens with 18 samples.

Results

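The snoRNA host RNAs are genes whose introns carry small nucleolar RNAs (snoRNAs) or small Cajal body RNAs. Members were taken by name, as every gene with a symbol of SNHG and a number, together with GAS5, ZFAS1, C6orf48, EPB41L4A-AS1 and DANCR, which gave 30 of the 58870 genes in the table. Of these, 27 had enough counts to be tested, and SNHG18, SNHG27 and SNHG28 did not, with at most 2, 2 and 9 counts in any library. The family was chosen by measured values, namely the counts of C6orf48 in BGT226-treated against untreated cells, so that comparison is given as a description without tests, and C6orf48 is given without a test wherever untreated or BGT226-alone libraries enter.

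The cells were NCI-H295R, a human adrenocortical carcinoma line, sequenced as ribosomal RNA-depleted, stranded total RNA. The treated groups were STA9090 (also known as ganetespib; it blocks the HSP90 chaperone), PIK75 (an inhibitor of phosphoinositide 3-kinase, PI3K), BGT226 (an inhibitor of both PI3K and mTOR), STA9090 with PIK75, and STA9090 with BGT226, and they were set against untreated cells. Each of the 6 groups had 3 libraries, the stated dose was 20 nM and the stated time 48 h; how the dose was divided in the combinations, and whether the untreated cells received vehicle, is not stated. The labels do not say whether the 3 libraries of a group came from separate cultures, so the p-values measure only the spread between these libraries.

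Processing a snoRNA host transcript releases the snoRNAs from its introns, where they go on to guide the chemical modification of ribosomal and spliceosomal RNA. The spliced exons are a by-product in many of these genes: they hold short reading frames, are loaded on ribosomes and are then degraded by nonsense-mediated decay, which needs translation. Many of the genes start at a C followed by a run of C and T, the terminal oligopyrimidine (TOP) element shared with ribosomal protein mRNAs, whose translation depends on mTOR. GAS5, the growth arrest-specific host, is the known example of a host RNA that accumulates in resting cells and under mTOR inhibition.

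The start sequences are shown because the TOP element is the feature the family is known for. Each line below is the genome from 20 bases before to 30 bases from the RefSeq start (GRCh38.p14), read on the strand of the gene, and capitals mark the unbroken run of C and T that begins at the first transcribed base. C6orf48 (chr6:31834896-31834945, plus strand, SNHG32 in RefSeq), ZFAS1 (chr20:49278622-49278671, plus strand) and SNHG5 (chr6:85678704-85678753, minus strand) open with CTTT.
C6orf48: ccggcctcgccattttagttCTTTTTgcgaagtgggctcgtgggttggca
ZFAS1: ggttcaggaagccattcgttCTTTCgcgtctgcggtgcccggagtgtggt
SNHG5: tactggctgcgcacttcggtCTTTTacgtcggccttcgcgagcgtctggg
The starts printed are a selection. SNHG12, not printed, opens at its RefSeq start with a run of 11 C and T. It had 26.0 ± 0.841 CPM with BGT226 and 26.8 ± 2.57 CPM in untreated cells (SD, n = 3 each). DANCR (chr4:52712374-52712423, plus strand), SNHG17 (chr20:38435299-38435348, minus strand), SNHG10 (chr14:95534843-95534892, minus strand) and EPB41L4A-AS1 (chr5:112160506-112160555, plus strand) do not open with CTTT and are shown for contrast. In EPB41L4A-AS1 the run is a single base.
DANCR: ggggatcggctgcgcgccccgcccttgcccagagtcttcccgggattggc
SNHG17: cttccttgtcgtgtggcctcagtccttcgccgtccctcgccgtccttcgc
SNHG10: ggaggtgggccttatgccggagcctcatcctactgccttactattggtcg
EPB41L4A-AS1: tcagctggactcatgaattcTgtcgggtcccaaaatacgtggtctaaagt

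For GAS5, SNHG16 and SNHG29 the RefSeq start is at another base. For SNHG16 it is at 76557764, only a few bases before the GENCODE start, so the presence of the motif can turn on small differences of annotation. The motif stands at the start of some of the GENCODE 29 transcripts of these 3 genes, namely 6 of 29 for GAS5, 2 of 8 for SNHG16 and 5 of 30 for SNHG29. Their first 24 transcribed bases, with the run of C and T in capitals, lie at chr1:173867966-173867989 (GAS5, minus strand), chr17:76557769-76557792 (SNHG16, plus strand) and chr17:16439037-16439060 (SNHG29, plus strand) of GRCh38.
GAS5: CTTTTCgaggtaggagtcgactcc
SNHG16: CTTTTCgaggtcggccgcgtggct
SNHG29: CTTTTCattcccgttgttatggag
The runs of C and T have the same 6 bases in all 3. The transcripts were picked for opening with CTTT, so only the bases after it could differ.

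The libraries held about 10237000 to 21134000 counts, of which 4 RNA polymerase III transcripts took 28.6% to 40.3%. Adrenocortical markers were present, with 8 of 9 tested, and of the fibroblast, endothelial and leukocyte markers only COL1A1 and CD14 had enough counts to be tested. Levels are given as CPM, a gene's count scaled to the TMM-adjusted total of its library, so they are relative to the other RNAs in the same library, and fewer cells holding an RNA cannot be told apart from less of it per cell.

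In untreated cells the family summed to 680 ± 67.1 CPM (SD, n = 3). Per kilobase of exon the most abundant members were SNHG29 at 29.8, SNHG3 at 20.5, GAS5 at 17.1 and DANCR at 13.6 CPM per kb. SNHG29 hosts SNORD49A, SNORD49B and SNORD65, SNHG3 hosts SNORA73A and SNORA73B, and DANCR hosts SNORA26. SNHG29, SNHG3 and GAS5 together made up 37.9% of the summed CPM, while 7 members among those tested, from SNHG6 down to SNHG25, were below 3.5 CPM.

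The summed level was 695 ± 80.0 CPM in STA9090, 773 ± 15.6 in PIK75, 1120 ± 1.93 in BGT226, 855 ± 46.4 in STA9090 with PIK75 and 1122 ± 39.5 in STA9090 with BGT226 (SD, n = 3 each). Both groups that received BGT226 stood well above the other 4. The plot of library values shows that this came from some of the members and not from others.

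**Figure D1:**
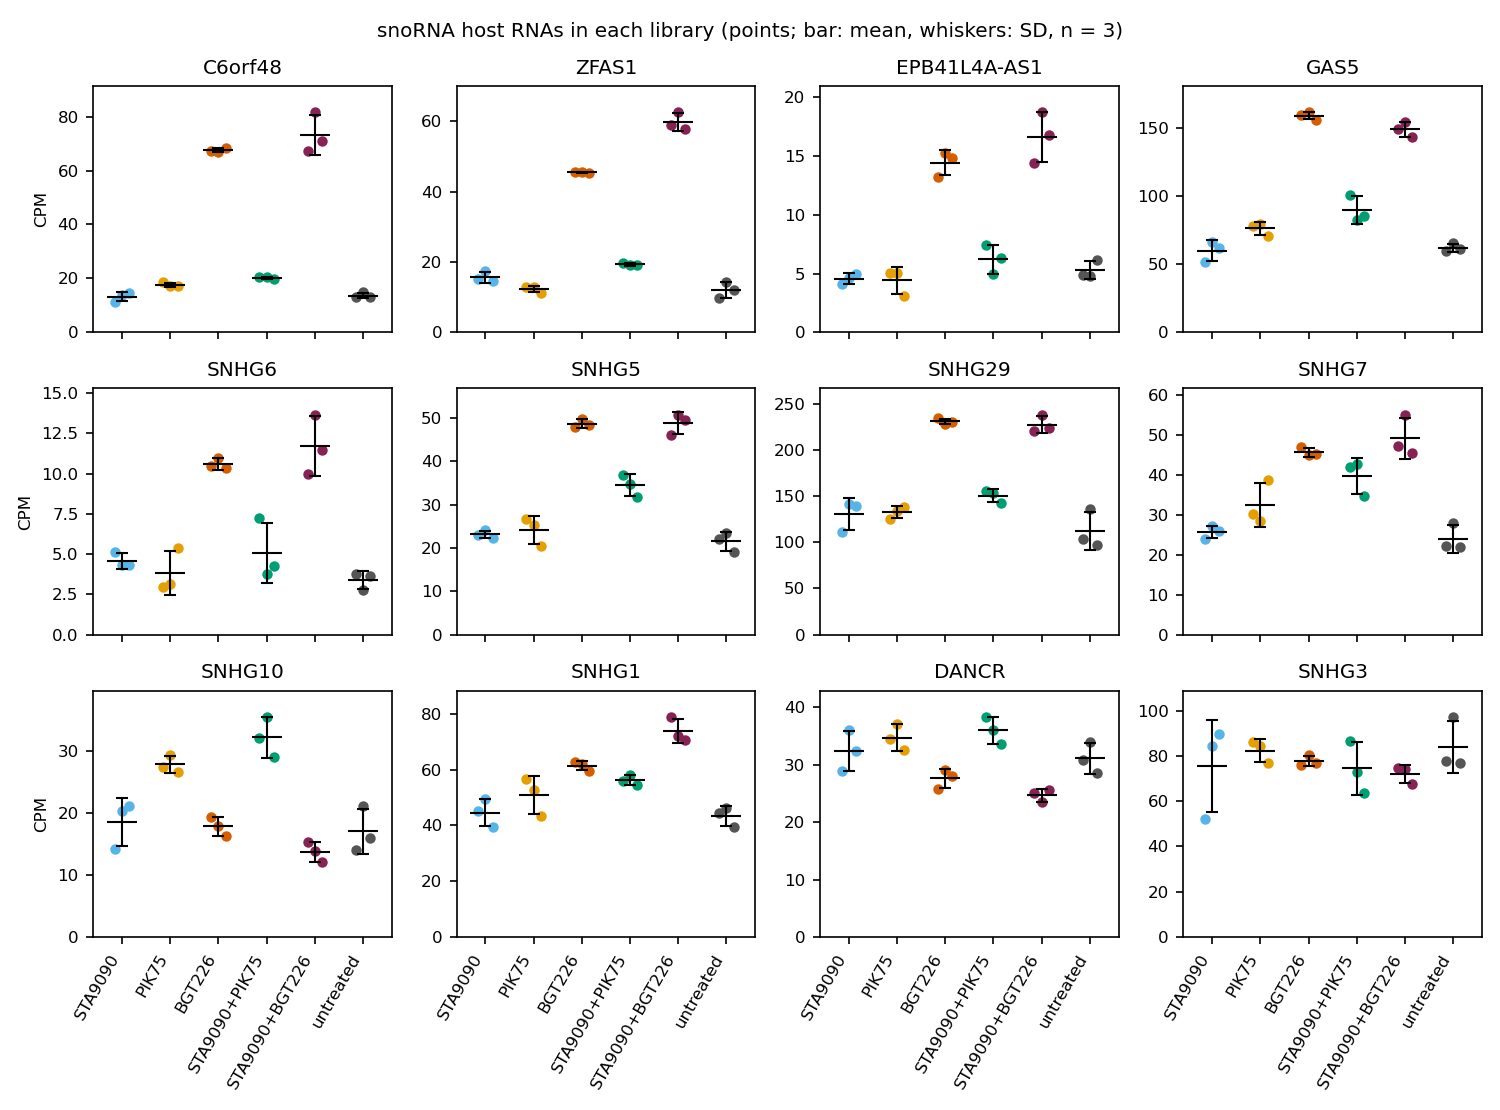
Level in CPM (linear axis from 0) of 12 snoRNA host RNAs in every library, by group; points are libraries, the bar is the mean and the whiskers the SD of 3 libraries. C6orf48, ZFAS1, EPB41L4A-AS1, GAS5, SNHG6, SNHG5 and SNHG29 stand apart in both groups that received BGT226, SNHG10 is high in both groups that received PIK75, and SNHG3 overlaps between the groups.

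BGT226 alone is described first. C6orf48, which hosts SNORD48 and SNORD52 and is annotated as protein coding, had 67.4, 66.9 and 68.5 CPM in BGT226-treated cells, against 13, 14.9 and 13 CPM in untreated cells. ZFAS1, the host of the SNORD12 group that lies antisense to ZNFX1, had 45.6, 45.5 and 45.4 CPM in BGT226-treated cells, against 9.76, 14.3 and 12.1 CPM in untreated cells. The 3 treated libraries lay close together and far above every untreated one in both genes.

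GAS5 had 160, 161 and 156 CPM in BGT226-treated cells, against 59.9, 65.3 and 61.1 CPM in untreated cells. SNHG6, the host of SNORD87, had 10.4, 11 and 10.3 CPM in BGT226-treated cells, against 3.78, 2.77 and 3.64 CPM in untreated cells. EPB41L4A-AS1, the host of SNORA13, had 13.2, 15.2 and 14.8 CPM in BGT226-treated cells, against 4.92, 4.80 and 6.17 CPM in untreated cells. None of these groups overlapped. In log2 fold change the order was C6orf48 at 2.31, ZFAS1 at 1.91, SNHG6 at 1.65, EPB41L4A-AS1 at 1.46, GAS5 at 1.36, SNHG5 at 1.17 and SNHG29 at 1.04.

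Under the rule of an edgeR adjusted p under 0.05, 12 of the 27 members were past the threshold as higher in BGT226-treated cells and 0 as lower, where 12.8% and 15.7% of all 15787 genes tested were. Nothing is read from that count, since the family was chosen with this comparison in view. DANCR had 25.8, 29 and 28.1 CPM in BGT226-treated cells, against 30.9, 33.9 and 28.5 CPM in untreated cells, and the libraries overlapped. SNHG3 had 77.9 ± 2.26 CPM in BGT226-treated cells and 83.9 ± 11.4 CPM in untreated cells (SD, n = 3 each).

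The cells given STA9090 with BGT226 were also set against those given STA9090 alone, 6 libraries other than those with BGT226 alone or untreated. The members and comparisons were chosen with earlier results of these data known, so this comparison is not independent support. Of all genes, 2.69% differed between STA9090 with BGT226 and BGT226 alone, and 2.84% between STA9090 alone and untreated cells. Host RNAs led by C6orf48, ZFAS1 and EPB41L4A-AS1 rose here as well, by 3.66-fold to 5.58-fold for those 3. Of the 27 members, 15 rose and 3 fell, against 19.5% of all genes higher and 20.9% lower (40.4% in either direction); the median log2 fold change was 0.55 for the members and 0.03 for all genes.

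C6orf48 had 67.1, 81.6 and 70.9 CPM with STA9090 and BGT226, against 11.3, 13.7 and 14.7 CPM with STA9090 alone. Its log2 fold change was 2.48 (SE 0.0925, edgeR adjusted p = 4.18e-13). ZFAS1 had 59.0, 62.6 and 57.8 CPM with the combination, against 15, 17.5 and 14.6 CPM with STA9090 alone. Both genes had every combination library above every STA9090 library. The log2 fold change of ZFAS1 was 1.93 (SE 0.0967, edgeR adjusted p = 2.32e-11).

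EPB41L4A-AS1 had 14.4, 18.7 and 16.8 CPM with the combination, against 4.12, 4.61 and 5.01 CPM with STA9090 alone, a log2 fold change of 1.87 (SE 0.164, edgeR adjusted p = 3.56e-08). GAS5 had 149, 154 and 143 CPM with the combination, against 51.3, 66.4 and 61.6 CPM with STA9090 alone. The groups did not overlap, and GAS5 rose by 1.32 on the log2 scale (SE 0.0903, edgeR adjusted p = 1.26e-09). SNHG1, which hosts SNORD22 and the SNORD25 to SNORD28 group, had 78.8, 72.1 and 70.5 CPM with the combination, against 45.0, 49.4 and 39.4 CPM with STA9090 alone. It rose by 0.72 on the log2 scale (SE 0.0917, edgeR adjusted p = 3.33e-06).

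The other members that rose in this comparison were SNHG6 (log2 fold change 1.34), SNHG5 (1.07), SNHG19 (0.96), SNHG7 (0.94), SNHG21 (0.94), SNHG29 (0.80), SNHG15 (0.60), SNHG16 (0.51), SNHG8 (0.48) and SNHG14 (0.42). SNHG5 hosts SNORD50B, SNHG7 the SNORA17 pair and SNHG16 the SNORD1 group. SNHG19 and SNHG21 averaged under 5 CPM and lost their call without replicate 1 of either group. SNHG19 lost it in 5 of 13 alternatives, also without STA9090 replicate 3, with DESeq2 and with no count filter. SNHG8 lost its call without STA9090 replicate 2.

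DANCR, SNHG17 and SNHG10 fell. DANCR had 25, 23.5 and 25.6 CPM with the combination, against 29, 36.0 and 32.3 CPM with STA9090 alone, a log2 fold change of -0.39 (SE 0.0903, edgeR adjusted p = 0.00173). SNHG17, host of the SNORA71 group, had 26.4, 26.1 and 23.3 CPM with the combination, against 27.0, 34.2 and 42.0 CPM with STA9090 alone. The groups of SNHG17 nearly touched, and its log2 fold change was -0.44 (SE 0.124, edgeR adjusted p = 0.00784), lost without STA9090 replicate 3. SNHG10 was at -0.43 with overlapping groups, and its call was lost without replicate 2 or replicate 3 of either group.

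Set against untreated cells, STA9090 with BGT226 gave 14 of the 26 members other than C6orf48 higher and 2 lower (15 and 2 of 27 with it), where 19.4% and 20.4% of all genes were (39.8% in either direction). This comparison uses the same untreated libraries as the description of BGT226 alone. C6orf48 was at a log2 fold change of 2.42, and ZFAS1 was 2.31 higher (SE 0.0998, edgeR adjusted p = 2.60e-12). SNHG6 was 1.79 higher (SE 0.218), EPB41L4A-AS1 1.66 higher (SE 0.161), and DANCR and SNHG17 were at -0.33 and -0.34. The SNHG17 call was lost without untreated replicate 2 or STA9090+BGT226 replicate 3, and SNHG11, SNHG19 and SNHG26 lost theirs in 4, 6 and 6 alternatives. The grid of log2 fold changes gives all 27 members.

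**Figure D2:**
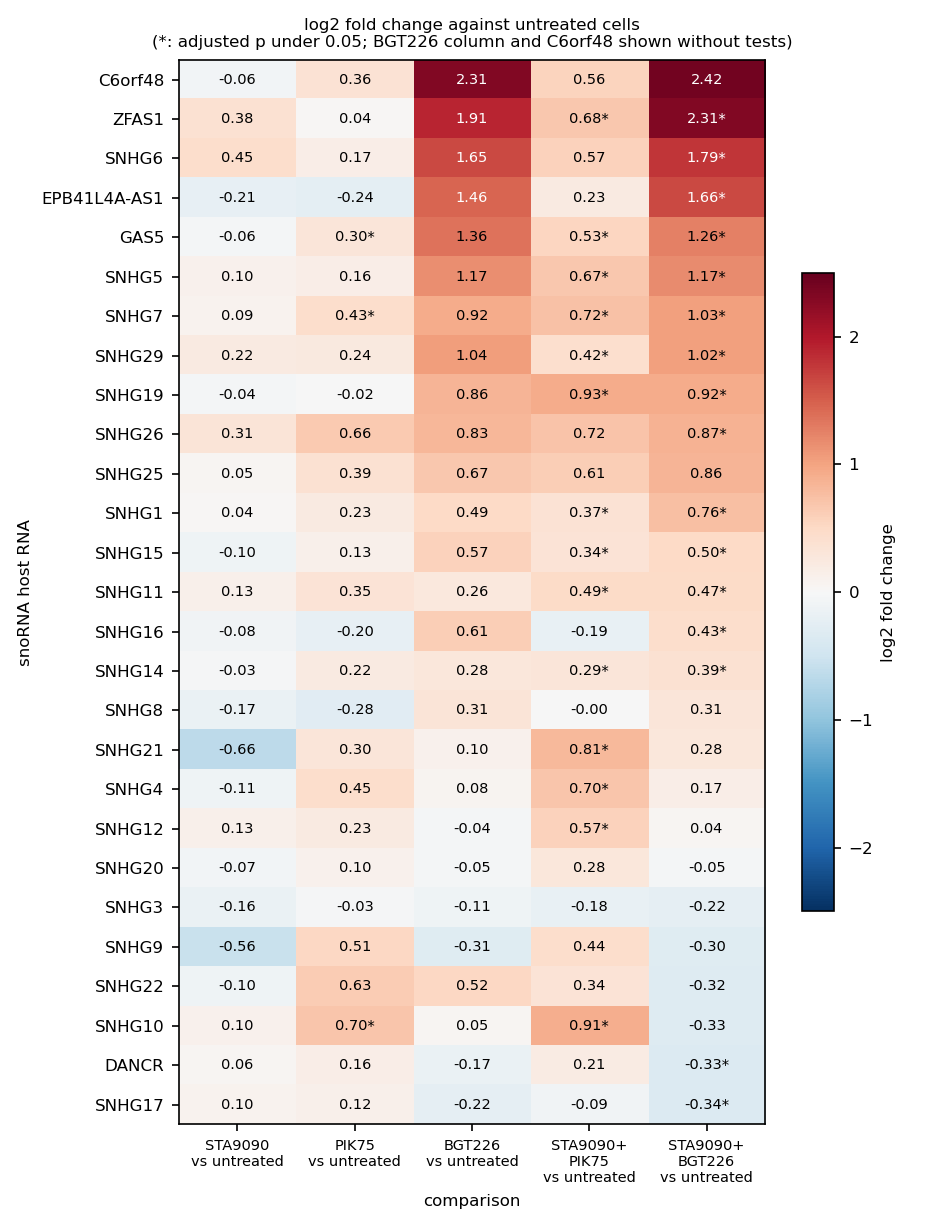
log2 fold change of each of the 27 tested snoRNA host RNAs in the 5 treated groups against untreated cells (colour and number; red is higher in treated cells); asterisks mark an edgeR adjusted p under 0.05, and the BGT226 column and C6orf48 are shown without tests. Values reach 2.31 with BGT226 and 2.42 with STA9090 and BGT226, both for C6orf48, and stay between -0.66 and 0.45 with STA9090 alone; all columns share the untreated libraries.

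Other long non-coding RNAs moved in the same direction. Among 1693 tested genes annotated as long non-coding RNA that are not members, 27.1% were higher and 3.37% lower with STA9090 and BGT226 than with STA9090 alone, with a median log2 fold change of 0.38. With BGT226 against untreated cells their median was 0.28.

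PIK75 alone was followed by smaller differences. SNHG10, the host of SCARNA13, rose most among the members named, and SNHG7 and GAS5 rose by at most 1.35-fold. These were the 3 of 26 members that rose, with C6orf48 set aside (4 of 27 with it), 0 fell, and 8.49% of all genes were higher and 10.2% lower; the median log2 fold change was 0.23 for the members, 0.00 for all genes and 0.19 for the other long non-coding RNAs.

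SNHG10 had 27.4, 29.4 and 26.6 CPM in PIK75-treated cells, against 14, 21.1 and 16.0 CPM in untreated cells, a log2 fold change of 0.70 (SE 0.144, edgeR adjusted p = 0.00172). Its groups did not overlap, and the call held in every alternative run. SNHG7 had 30.3, 28.6 and 38.9 CPM in PIK75-treated cells, against 22.2, 28.1 and 21.9 CPM in untreated cells, where the lowest treated and the highest untreated library nearly met. Its log2 fold change was 0.43 (SE 0.119, edgeR adjusted p = 0.0152).

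C6orf48 had 18.6, 17.1 and 17.1 CPM in PIK75-treated cells, against 13, 14.9 and 13 CPM in untreated cells, a log2 fold change of 0.36 given without a test. GAS5 had 78.4, 79.8 and 70.5 CPM in PIK75-treated cells, against 59.9, 65.3 and 61.1 CPM in untreated cells, a log2 fold change of 0.30 (SE 0.0906, edgeR adjusted p = 0.0270). The groups of both genes were separate but close. The count of 4, C6orf48 included, fell to 1 without untreated replicate 1 or untreated replicate 3 and to 2 without PIK75 replicate 1. SNHG10 was among those called in each of the 3. The SNHG7 call was lost without untreated replicate 1, untreated replicate 3 or PIK75 replicate 3. The GAS5 call was lost without untreated replicate 1, untreated replicate 3, PIK75 replicate 1 or PIK75 replicate 2.

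ZFAS1 had 12.8, 13 and 11.3 CPM in PIK75-treated cells, against 9.76, 14.3 and 12.1 CPM in untreated cells, a log2 fold change of 0.04 (95% interval -0.18 to 0.26). EPB41L4A-AS1 had 5.09, 5.04 and 3.13 CPM in PIK75-treated cells, against 4.92, 4.80 and 6.17 CPM in untreated cells, with an interval of -0.61 to 0.13. The libraries of both genes overlapped.

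With STA9090 and PIK75 together, 14 of the 26 members other than C6orf48 rose and 0 fell relative to untreated cells (15 and 0 of 27 with it), where 18.3% of all genes were higher and 20.1% lower (38.4% in either direction). SNHG10 had 32.1, 35.4 and 28.9 CPM with the combination, against 14, 21.1 and 16.0 CPM in untreated cells (log2 fold change 0.91, SE 0.142, edgeR adjusted p = 4.18e-05). SNHG7 had 42.1, 42.8 and 34.7 CPM with the combination, against 22.2, 28.1 and 21.9 CPM in untreated cells (log2 fold change 0.72, SE 0.118, edgeR adjusted p = 6.56e-05). Both groups were apart in these 2 genes.

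ZFAS1 had 19.8, 19.1 and 19.2 CPM with STA9090 and PIK75, against 9.76, 14.3 and 12.1 CPM in untreated cells (log2 fold change 0.68, SE 0.107, edgeR adjusted p = 4.62e-05). SNHG5 had 36.8, 34.7 and 31.7 CPM with the combination, against 22.2, 23.4 and 19.1 CPM in untreated cells (log2 fold change 0.67, SE 0.0932, edgeR adjusted p = 1.08e-05). GAS5 rose by 0.53 on the log2 scale (SE 0.0903, edgeR adjusted p = 0.000113), and C6orf48 was at 0.56, without a test. The remaining rises were SNHG19 (0.93), SNHG21 (0.81), SNHG4 (0.70), SNHG12 (0.57), SNHG11 (0.49), SNHG29 (0.42), SNHG1 (0.37), SNHG15 (0.34) and SNHG14 (0.29). Of these, SNHG19, SNHG21, SNHG14, SNHG4, SNHG11 and SNHG15 lost the call when a single library was left out, and SNHG12, SNHG29 and SNHG1 did not.

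Against STA9090 alone, which shares no library with PIK75 against untreated, STA9090 with PIK75 also gave 15 members higher and 0 lower, where 17.7% and 19.8% of all genes were (37.5% in either direction). SNHG10 rose by 0.81 on the log2 scale (SE 0.141, edgeR adjusted p = 0.000161), SNHG7 by 0.63 (SE 0.117, edgeR adjusted p = 0.000294), C6orf48 by 0.62 (SE 0.0994, edgeR adjusted p = 6.07e-05) and GAS5 by 0.59 (SE 0.0905, edgeR adjusted p = 4.13e-05). With C6orf48 set aside, the 3 genes called with PIK75 alone were all called here, 21.4% of the 14. The same overlap over all genes was not counted, so nothing is read from it. ZFAS1, SNHG1, SNHG4, SNHG12, SNHG14, SNHG19 and SNHG20 lost their call here when a single library was left out. Markers of the adrenocortical cell moved with PIK75: their 9 genes summed to 1023 ± 23.1 CPM with STA9090 and PIK75 and 1363 ± 106 CPM with PIK75, against 2338 ± 303 CPM with STA9090 and 2243 ± 241 CPM in untreated cells (SD, n = 3 each), ranging from 1000 to 1046, 1294 to 1486, 2035 to 2641 and 2097 to 2521 CPM in that order, with MLANA at 0. The fibroblast list, of which COL1A1 was the 1 gene of 6 tested, summed to 0.927 ± 0.351 CPM with STA9090 and PIK75, against 7.48 ± 1.02 CPM with STA9090 and 10.2 ± 1.61 CPM in untreated cells (SD, n = 3 each). The part of either list in these results was not tested.

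The PI3K and mTOR inhibitor and the PI3K inhibitor were then set against each other. In the presence of STA9090, STA9090 with PIK75 gave 6 members higher and 10 lower than STA9090 with BGT226. Of all genes 20.9% were higher and 22.4% lower (43.3% in either direction). No library with BGT226 alone or untreated enters here, but this comparison too was chosen with earlier results known. SNHG10 had 32.1, 35.4 and 28.9 CPM with STA9090 and PIK75, against 15.2, 13.8 and 12.1 CPM with STA9090 and BGT226 (log2 fold change 1.23, SE 0.145, edgeR adjusted p = 9.44e-07). DANCR had 38.3, 36.0 and 33.7 CPM with STA9090 and PIK75, against 25, 23.5 and 25.6 CPM with STA9090 and BGT226 (log2 fold change 0.54, SE 0.0899, edgeR adjusted p = 6.04e-05). The libraries of the 2 groups were apart in both genes.

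SNHG12, which hosts SNORA44, SNORA61 and SNORD99, had 43.7, 37.9 and 38 CPM with STA9090 and PIK75, against 31.9, 26.9 and 24.6 CPM with STA9090 and BGT226 (log2 fold change 0.52, SE 0.135, edgeR adjusted p = 0.00340). SNHG9, SNHG4 and SNHG20 were also higher, and their calls were lost in 6, 6 and 7 alternatives. On the other side C6orf48 had 20.4, 20.6 and 19.6 CPM with STA9090 and PIK75, against 67.1, 81.6 and 70.9 CPM with STA9090 and BGT226 (log2 fold change -1.86, SE 0.0883, edgeR adjusted p = 4.78e-12). ZFAS1 was at -1.63 (SE 0.0949, edgeR adjusted p = 5.61e-11) and EPB41L4A-AS1 at -1.43 (SE 0.158, edgeR adjusted p = 4.04e-07). SNHG6 (-1.22), GAS5 (-0.73), SNHG16 (-0.62), SNHG29 (-0.60), SNHG5 (-0.50), SNHG1 (-0.39) and SNHG7 (-0.31) were lower too. The SNHG7 call was lost without STA9090+PIK75 replicate 3 or STA9090+BGT226 replicate 2.

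Without STA9090, PIK75 gave 4 of the 26 members other than C6orf48 higher and 12 lower than BGT226, where 16.5% and 15.5% of all genes were (32% in either direction). SNHG10 had 27.4, 29.4 and 26.6 CPM with PIK75, against 19.3, 17.9 and 16.2 CPM with BGT226 (log2 fold change 0.65, SE 0.143, edgeR adjusted p = 0.00150). DANCR was 0.33 higher (SE 0.0894, edgeR adjusted p = 0.00827), lost without PIK75 replicate 2, and SNHG17 was 0.34 higher (SE 0.124, edgeR adjusted p = 0.0432), lost on leaving out any 1 library of the 2 groups. ZFAS1 was at -1.88 (SE 0.101, edgeR adjusted p = 8.74e-11) and EPB41L4A-AS1 at -1.70 (SE 0.167, edgeR adjusted p = 2.01e-07). C6orf48 was at -1.94, given without a test because the libraries with BGT226 alone entered its choice. The calls of SNHG9, SNHG1 and SNHG19 were lost in 4, 3 and 7 alternatives.

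The 2 comparisons share no library. With C6orf48 set aside, 16 members were called without STA9090 and 15 with it, and 12 were called the same way in both, which is 75% of the first list and 80% of the second. Of all genes tested, 32% were called without STA9090 and 43.3% with it. Their overlap over all genes was not counted, so nothing is read from the 75% and 80%. SNHG17, SNHG15, SNHG8 and SNHG19 were called without STA9090 only, and SNHG4, SNHG12 and SNHG20 with it only; whether those 7 differ between the settings was not tested.

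**Figure D3:**
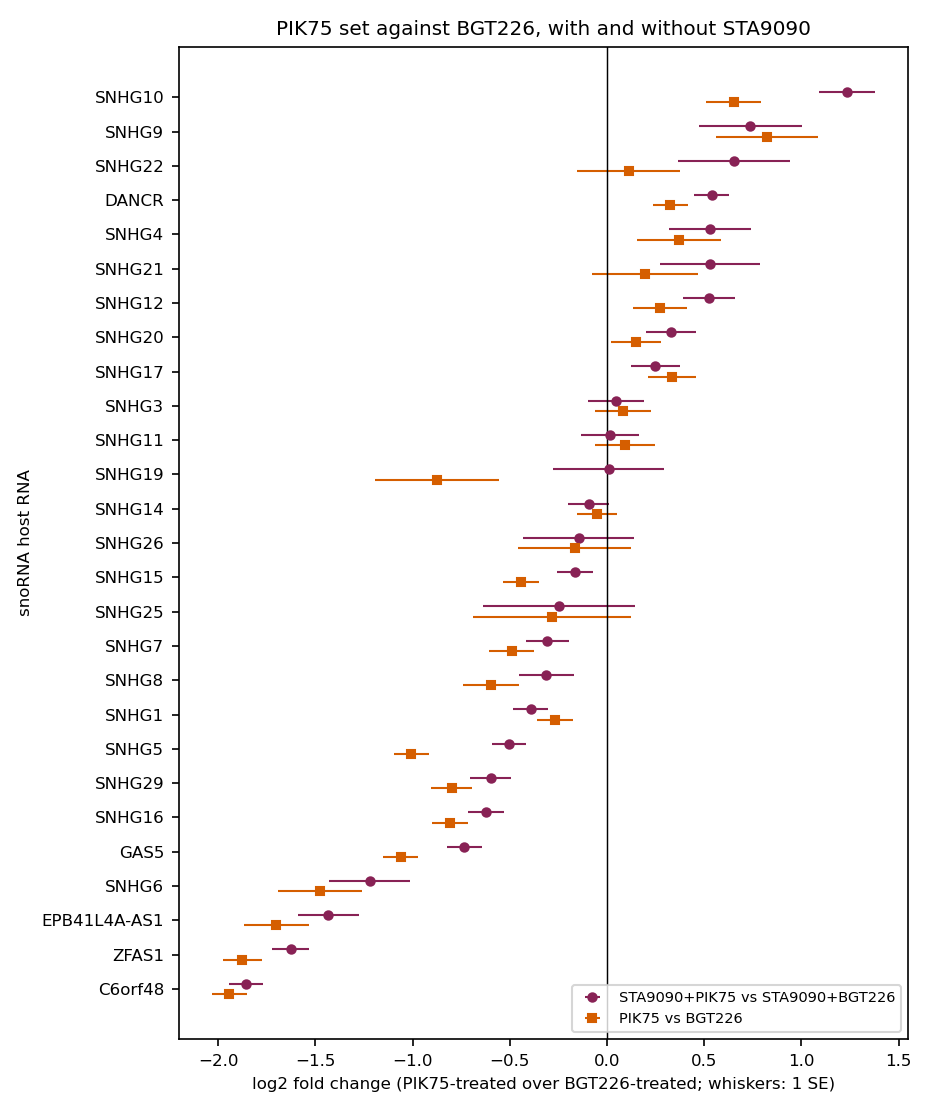
log2 fold change of PIK75-treated over BGT226-treated cells for the 27 tested host RNAs, with STA9090 in both groups (circles) and without it (squares); whiskers are 1 SE. C6orf48, ZFAS1, EPB41L4A-AS1, SNHG6 and GAS5 lie at -0.73 or below in both, and SNHG10 is highest with STA9090 at 1.23.

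STA9090 alone was followed by little change. Relative to untreated cells 0 of the 27 members passed edgeR's quasi-likelihood test in either direction, with 1.16% of all genes higher and 1.68% lower (2.84% in either direction); 2 members had an unadjusted p under 0.05, and DESeq2 called 1. ZFAS1 had 15, 17.5 and 14.6 CPM with STA9090, against 9.76, 14.3 and 12.1 CPM in untreated cells, a log2 fold change of 0.38 (95% interval 0.17 to 0.59, edgeR adjusted p = 0.0618). GAS5 was at -0.06 (95% interval -0.24 to 0.12) and C6orf48 at -0.06, without a test. Leaving out untreated replicate 2 brought the count to 2.

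Adding STA9090 to PIK75 gave 3 members higher and 0 lower than PIK75 alone, where 11.3% of all genes were higher and 14% lower (25.3% in either direction). ZFAS1 had 19.8, 19.1 and 19.2 CPM with the combination, against 12.8, 13 and 11.3 CPM with PIK75 alone (log2 fold change 0.64, SE 0.107, edgeR adjusted p = 0.000178). SNHG5 had 36.8, 34.7 and 31.7 CPM with the combination, against 26.8, 25.2 and 20.5 CPM with PIK75 alone (log2 fold change 0.51, SE 0.0926, edgeR adjusted p = 0.000421). The groups of both genes were apart, and the call of both held in every alternative run. SNHG19, at about 1 CPM or less with PIK75, was the third, and its call was lost in 6 of 13 alternatives. The count was 5 without PIK75 replicate 3 or without STA9090+PIK75 replicate 2.

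Adding STA9090 to BGT226 gave 1 member higher and 0 lower than BGT226 alone, where 0.988% and 1.7% of all genes were (2.69% in either direction). This was ZFAS1, with 59.0, 62.6 and 57.8 CPM with the combination, against 45.6, 45.5 and 45.4 CPM with BGT226 alone (log2 fold change 0.39, SE 0.0881, edgeR adjusted p = 0.0197), and its call was lost on leaving out any 1 of the 6 libraries. SNHG1 had 78.8, 72.1 and 70.5 CPM with the combination, against 62.7, 62.0 and 59.4 CPM with BGT226 alone (log2 fold change 0.27, edgeR adjusted p = 0.124).

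Whether the agents together departed from the sum of their separate effects on the log2 scale was tested as an interaction, and 0 of 27 members passed edgeR's test for either pair. For STA9090 with PIK75, 6 members had an unadjusted p under 0.05 and DESeq2 called 0, while 3.54% of all genes passed upward and 5.73% downward (9.27% in either direction). SNHG5 came closest, at 0.41 (95% interval 0.14 to 0.67, edgeR adjusted p = 0.0613), and the count became 2 without PIK75 replicate 1, 1 without untreated replicate 3 and 1 without STA9090+PIK75 replicate 3. For STA9090 with BGT226, 1 member had an unadjusted p under 0.05 and DESeq2 called 0, while 0.00633% of all genes passed upward and 0% downward. The intervals for ZFAS1 (-0.27 to 0.29) and GAS5 (-0.28 to 0.21) spanned 0.

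Of the 142 small RNA genes annotated inside members, 24 had enough counts to be tested; those inside GAS5 were not analysed here. SNORA13 lies inside EPB41L4A-AS1. It had 5.90, 4.6 and 6.21 CPM with STA9090 and BGT226, against 3.17, 7.07 and 6.68 CPM with STA9090 alone, a log2 fold change of 0.02 (SE 0.286) where its host was at 1.87 (SE 0.164). The SNORA13 libraries overlapped while those of the host did not. Against untreated cells SNORA13 was at 0.27 (SE 0.293) with STA9090 and BGT226, where its host was at 1.66. With BGT226 alone it was at 0.60 (SE 0.286), where its host was at 1.46. The 24 small RNAs had a median of 0.29 with STA9090 against untreated cells, with 0 called, so the distance between host and guest depends on the reference.

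The SNHG7 guest SNORA17B, a pseudouridylation guide, is annotated under 2 IDs at almost the same coordinates, so reads of one RNA may be split between them. The entries were at 0.00 (SE 0.211) and -0.19 (SE 0.268) in that comparison, where SNHG7 was at 0.94. For STA9090 with BGT226 against untreated cells they were at 0.68 (SE 0.222, edgeR adjusted p = 0.0199) and 0.14 (SE 0.276, edgeR adjusted p = 0.718), where SNHG7 was at 1.03, and nothing is read from their difference. SNORD22 was at -0.14 (SE 0.284), where its host SNHG1 was at 0.72. SNORA73A and SNORA73B, at 275 and 206 CPM over all libraries, were at -0.32 and -0.34, where SNHG3 was at -0.06. Neither was called (edgeR adjusted p = 0.181 and 0.179), and against untreated cells they were at -0.04 and 0.03 with STA9090 and BGT226. SCARNA16 was the small RNA called, at -0.57 (SE 0.183, edgeR adjusted p = 0.0168), where its host SNHG20 was at 0.02. With STA9090 and PIK75 against STA9090 alone SCARNA16 was also called, at -0.63 (SE 0.185, edgeR adjusted p = 0.0114), where SNHG20 was at 0.35. Both falls rest on the same STA9090 libraries, where SCARNA16 had 54.0, 46.7 and 32.8 CPM. Against untreated cells SCARNA16 was at 0.64 with STA9090 alone (edgeR adjusted p = 0.0615). It was at 0.07 with STA9090 and BGT226 and at 0.02 with STA9090 and PIK75, so neither combination lowered it below the untreated level. No test of host against guest was fitted.

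SCARNA13 lies inside SNHG10. It had 256, 245 and 233 CPM with STA9090 and BGT226, against 172, 203 and 146 CPM in untreated cells (log2 fold change 0.49, SE 0.137, edgeR adjusted p = 0.00726), where SNHG10 was at -0.33. With PIK75 it was at 0.40 (edgeR adjusted p = 0.0486) and SNHG10 at 0.70. Against STA9090 alone, whose 3 libraries held 172, 209 and 252 CPM, SCARNA13 was at 0.22 with STA9090 and BGT226 (edgeR adjusted p = 0.220).

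**Figure D4:**
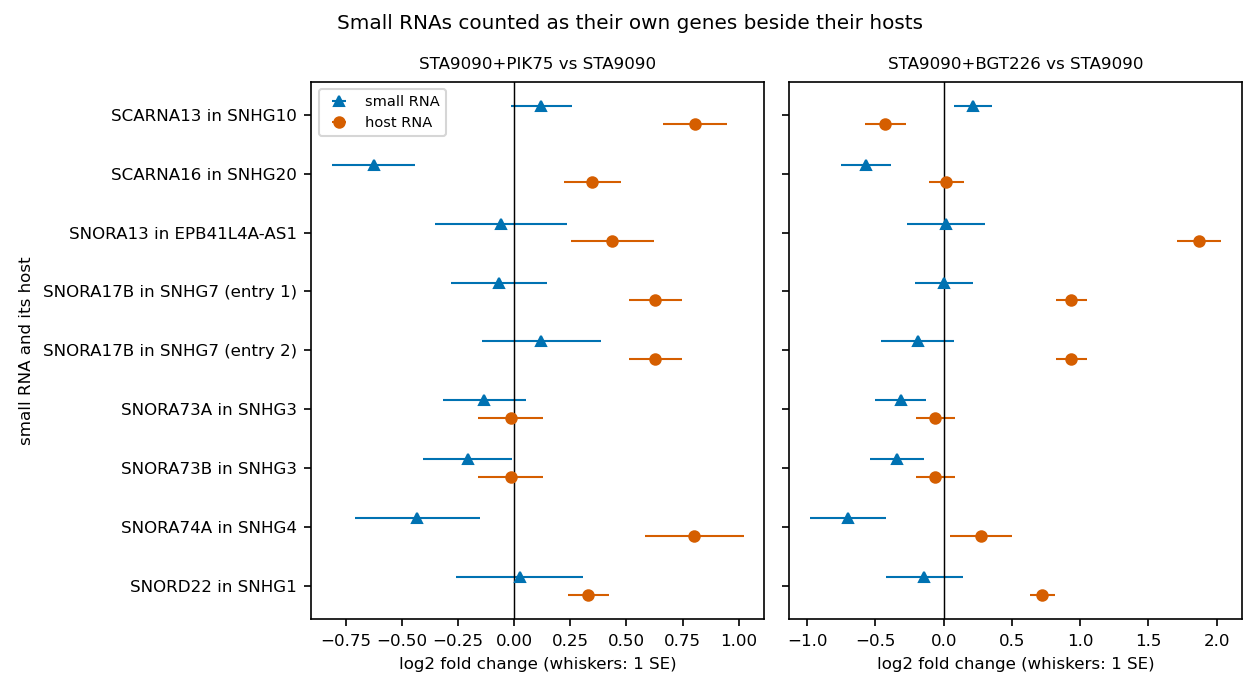
log2 fold change of 9 annotated small RNA entries of at least 5 CPM (SNORA17B is 1 locus under 2 IDs) (triangles) and of the host RNA that carries each (circles), for STA9090 with PIK75 and STA9090 with BGT226, each against STA9090 alone; whiskers are 1 SE. In the BGT226 panel SNORA13 stands at 0.02 beside a host at 1.87 and SNORA17B at 0.00 and -0.19 beside a host at 0.94.

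Genes overlapping members can share their reads, and the strand setting of the counting is not stated in what was read here. With STA9090 and BGT226 against untreated cells ZNFX1, opposite ZFAS1, was at 0.27 where ZFAS1 was at 2.31, and EPB41L4A was at 0.59 where EPB41L4A-AS1 was at 1.66. LRRC75A, opposite SNHG29, was at 0.21 where SNHG29 was at 1.02. GLRX5, opposite SNHG10, was at -0.67 where SNHG10 was at -0.33. Opposite GAS5, which was at 1.26, ZBTB37 was at 0.68 (edgeR adjusted p = 0.00012) and GAS5-AS1, under 1 CPM, at 1.46 (edgeR adjusted p = 0.0218). Members with a gene on the same strand, SNHG3 (RCC1), SNHG4 (MATR3), SNHG20 (SEC14L1), SNHG21 (AC105339.2), C6orf48 (AL671762.1) and SNHG14 (SNRPN and AC124312.3), are the least certain. AL671762.1 was at 0.07 in the same comparison (edgeR adjusted p = 0.838). With BGT226 alone it averaged 69 CPM, against 40.2 CPM in untreated cells, a log2 fold change of 0.78 (edgeR adjusted p = 0.0147), where C6orf48 was at 2.31. AC124312.3 was at 0.59 with STA9090 and BGT226 against untreated cells (edgeR adjusted p = 0.00202), where SNHG14 was at 0.39.

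Genes that act with the hosts were counted from lists, to be read against 19.5% of all genes higher and 20.9% lower for STA9090 with BGT226 against STA9090 alone, and 17.7% and 19.8% for STA9090 with PIK75 against STA9090 alone. The snoRNP list of 17 holds core proteins of the particles that carry snoRNAs and proteins that act in assembling those particles. With STA9090 and BGT226 against STA9090 alone 1 rose (5.88%) and 8 fell (47.1%), with a median log2 fold change of -0.29. The falls were led by RUVBL1 (-0.58, SE 0.0666, edgeR adjusted p = 9.85e-07), DKC1 (-0.46, SE 0.0692, edgeR adjusted p = 2.40e-05) and NOP10 (-0.72, SE 0.117, edgeR adjusted p = 5.77e-05). DKC1 is the pseudouridine synthase of the H/ACA particles and NOP10 another of their core proteins. With STA9090 and PIK75 against STA9090 alone 6 rose (35.3%) and 0 fell (median 0.15). Set against each other, STA9090 with PIK75 had 12 of the 17 higher than STA9090 with BGT226 (70.6%, against 20.9% of all genes) and 0 lower (against 22.4%; median 0.50), the reverse of the sign for C6orf48 and ZFAS1.

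Of 14 factors of nonsense-mediated decay, 5 rose (35.7%) and 1 fell (7.14%) with STA9090 and BGT226 against STA9090 alone. SMG1, the kinase of the pathway, rose by 0.74 on the log2 scale (SE 0.110, edgeR adjusted p = 2.22e-05), UPF1, its helicase, by 0.58 (SE 0.0799, edgeR adjusted p = 9.03e-06) and SMG9 by 0.53 (SE 0.0627, edgeR adjusted p = 1.30e-06). With STA9090 and PIK75 2 rose (14.3%, below the share of all genes) and 0 fell relative to STA9090 alone, UPF1 at 0.42 and SMG9 at 0.38.

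Of 30 protein-coding snoRNA hosts outside the ribosomal proteins, 6 rose (20%, near the share of all genes) and 13 fell (43.3%) with STA9090 and BGT226 against STA9090 alone (median -0.15). The list shares DKC1 and NOP56 with the snoRNP list and RACK1 with the ribosomal list. EEF2, an elongation factor with a TOP element, rose by 1.15 (SE 0.109, edgeR adjusted p = 8.78e-08) and TNPO2, an import receptor, by 0.78, while TCP1, a chaperonin subunit, was at -0.68. Of 84 cytosolic ribosomal protein genes 18 rose (21.4%) and 16 fell (19%) in that comparison, near the shares of all genes (median 0.08), with RPL12 at 0.92 and RPL39L at -1.59. Against untreated cells 45 were higher and 7 lower with STA9090 and BGT226 (53.6% and 8.33%, median 0.29, beside 19.4% and 20.4% of all genes). With BGT226 alone 42 were higher and 3 lower (50% and 3.57%, median 0.29, beside 12.8% and 15.7% of all genes). STA9090 with PIK75 gave 48 higher and 3 lower (57.1% and 3.57%, median 0.29, beside 18.3% and 20.1% of all genes), so these rises were not particular to BGT226. PIK75 alone gave 2 higher and 1 lower (2.38% and 1.19%, median 0.02, beside 8.49% and 10.2% of all genes). STA9090 alone gave 5 higher and 0 lower (5.95% and 0%, median 0.20, beside 1.16% and 1.68% of all genes).

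The motif CTTT at the first base was found at the RefSeq start of 4 of 26 members with an entry (15.38%: C6orf48, ZFAS1, SNHG5 and SNHG19), against 0.91% of 35116 RefSeq promoters; only the strand of the gene was read. A C followed by an unbroken run of C and T, at least 5 bases in all, was found in 26.92% of members and 4.07% of all promoters, and the 2 searches overlap. Counting also the GENCODE 29 starts, 11 of the 27 tested members had at least 1 start with CTTT (40.74%), against 803 of the other tested genes (5.1%). Members had a median of 9 annotated transcripts with the motif and 5 without it, so more starts were searched in the members that hold it.

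The 11 were C6orf48, ZFAS1, SNHG5, GAS5, SNHG16, SNHG29, SNHG6, SNHG19, SNHG25, SNHG8 and SNHG4. With STA9090 and BGT226 against STA9090 alone their log2 fold changes ranged from 0.27 to 2.48 with a median of 0.96, and those of the other 16 members from -0.44 to 1.87 with a median of 0.30. With STA9090 and PIK75 against STA9090 alone the medians were 0.56 and 0.42. Among genes that are not members the medians were 0.06 with the motif and 0.02 without it for BGT226 added to STA9090. EPB41L4A-AS1, SNHG7, SNHG1 and SNHG15 rose with no CTTT at an annotated start, so CTTT did not divide the members. At the RefSeq start SNHG7 and SNHG1 open with C and T runs of 4 and 3 bases (CTCT and CTC). The run of at least 5 bases from a C stood at the RefSeq start of 6 tested members and was absent from 17. With STA9090 and BGT226 against STA9090 alone the 6 ranged from -0.09 to 2.48 (median 1.02). The 17 ranged from -0.44 to 1.87 (median 0.48).

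**Figure D5:**
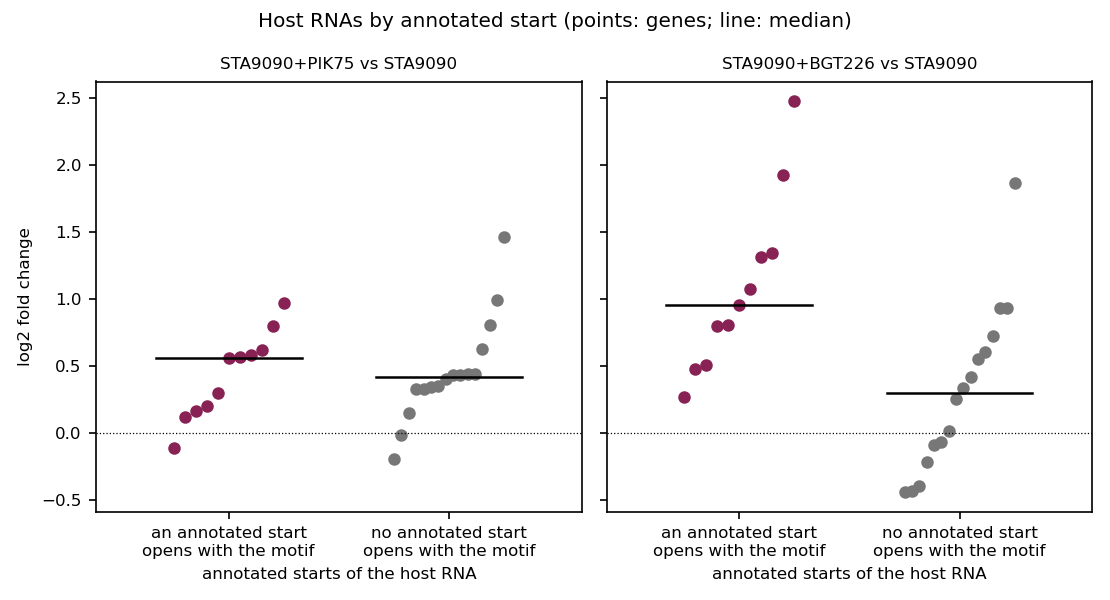
log2 fold change of the 27 tested host RNAs (points) by whether any annotated start opens with CTTT (left, 11 genes) or none does (right, 16 genes), for STA9090 with PIK75 and STA9090 with BGT226 against STA9090 alone; lines are medians. The medians are 0.56 and 0.42 with PIK75 and 0.96 and 0.30 with BGT226, and the points of the groups overlap.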

How the data were processed

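Expected counts per gene were deposited by the authors for 18 libraries, made with bcl2fastq 2.20, cutadapt 1.18, STAR 2.7.0f and RSEM 1.3.1 on hg38 per the submitters' processing notes; no source read here gives the annotation release or the strand setting. The counts were rounded to whole numbers and genes were kept by filterByExpr (minimum count 10, minimum total 15), which left 15787 genes. All libraries entered 1 edgeR 4.0.16 quasi-likelihood fit (R 4.3.3) with TMM scaling, and p-values were adjusted by Benjamini-Hochberg over all genes tested, with a threshold of 0.05. Each SE was taken from the F statistic (absolute log2 fold change over its root), and 95% intervals are 1.96 SE to either side. There were 13 comparisons. At about 10237000 to 21134000 counts a library, members near 1 CPM rest on few counts. The fit was run on simulated data with the same spread for every gene and changes only in well-counted genes. That run does not cover members with few counts.

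IDs were matched to GENCODE 29 (99.54% with versions ignored, 80.61% with them); exon length is the union of a gene's exons. Start sequences are RefSeq's (GRCh38.p14, 250 bases before to 50 after the start; 26 of 30 members had an entry) and GENCODE's. The members, gene lists and comparisons were chosen with earlier results of these data known. The text names the 5 spelled-out members and SNHG1 with library values, plus, in each comparison with untreated cells, up to 4 rises and 4 falls (in the others 3 and 3) by log2 fold change among called members that average 5 CPM or more and whose groups are separate; from other lists, up to 3 genes with the smallest adjusted p. SNHG3 and SNHG29 were described for their level, and small RNAs, overlapping genes and other members in lists of values were chosen after their values were seen. Alternatives were other scalings, filters, DESeq2 1.42.0, fits of the compared groups alone, a replicate block and leaving out each library.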

Additional observations from a re-analysis of the deposited data

How the results depend on the processing

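Of 118 called values of members over the comparisons, C6orf48 included, 81 kept their call in every alternative run, 37 lost it in at least 1 and 0 reversed. Counts of called members moved by over 1.5 times in these settings: STA9090 against untreated, 0 in the main fit, was 1 with no count filter and 1 with DESeq2; STA9090+BGT226 against BGT226, 1 in the main fit, was 3 with no count filter and 4 with only the groups compared; the interaction of STA9090 with PIK75, 0 in the main fit, was 1 with no count filter and 1 with the replicate block; and the interaction of STA9090 with BGT226, 0 in the main fit, was 1 with no count filter. Leaving out 1 library at a time gave 0 to 2 called members for STA9090 against untreated, 1 to 5 for PIK75 against untreated, 2 to 5 for STA9090+PIK75 against PIK75, 0 throughout for STA9090+BGT226 against BGT226 and 0 to 2 for the interaction of STA9090 with PIK75. Apart from removed libraries or genes the cause was not tested. No deviation shared by same-numbered libraries was seen. Over 45 same-numbered pairs the correlation of deviations ran from -0.172 to 0.150, with 2 over 0.1. Of 18 libraries, 2 correlated best with their own number. These correlations cannot show whether same-numbered libraries were handled together. With the replicate block the counts of the other 12 comparisons stayed within 1.5 times. Counts of the other gene lists moved by over 1.5 times in 25 of 78 cases with no count filter, 16 with only the groups compared, 11 with DESeq2 and 4 with the block. Members under 5 CPM are limited by depth.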
